A study of Bos taurus with 179 samples.

Results

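The genes described here are bovine readers and remodelers of chromatin with symbols from ARID1A to CHD9, followed through the growth of the oocyte. They were chosen by name, as the symbols that begin with ARID, ASXL, BAZ, BRD, CBX or CHD and a digit, or with ASH1L, ASH2L, ATRX, BPTF, BRPF or BRWD, among the entries read from the study's list of genes expressed in every size group. The choice gave 43 gene IDs with 42 symbols, of 21218 gene IDs in the count table, and CHD2 alone is carried by 2 IDs, ENSBTAG00000017776 (the first CHD2 ID) and ENSBTAG00000051831 (the second). Since the list holds only genes that the study counted as expressed in all groups, detection in every group follows from the choice and is not a result.

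Single oocytes of Bos taurus came from abattoir ovaries, fully grown ones by aspiration of follicles visible at the surface and growing ones by slicing the cortex, and were freed of surrounding cells by pipetting and measured before their polyadenylated mRNA was amplified and sequenced. Since fully grown and growing oocytes came by different routes, route and size cannot be told apart between them. No treatment or genotype separates the samples, and neither the animal nor its age or breed is given in the sources used here, so oocytes may share an animal. The oocytes fall into 8 groups by diameter: A below 60 µm, B 60 to 69 µm, C 70 to 79 µm, D 80 to 89 µm, E 90 to 99 µm, F 100 to 109 µm, G 110 to 119 µm and H above 120 µm. The 165 oocytes that the study kept comprise 21, 25, 23, 24, 21, 18, 19 and 14 oocytes in A to H. Of these, 97 belong to library replicate 1, read at 150 bp, and 68 to library replicate 2, read at 75 bp. Replicates differ in library preparation and in read length, which cannot be told apart. The median oocyte had 1763520 counts, the lowest 277126 and the highest 8038061, and the 43 IDs together held between 0.0956% and 0.633% of an oocyte's counts, with a median of 0.221%.

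For each size group and replicate, the counts of its oocytes were summed, which gave 16 sums, 1 per group in each replicate. Levels are CPM, the counts of a gene per 1000000 counts of such a sum after TMM scaling, so they give a transcript's share of the counted mRNA and not its amount per oocyte, and they are not compared between genes. The sums are not even in their makeup: A of replicate 1 holds 3 oocytes, and 1 of the 11 oocytes in F of replicate 1 gave 52.9% of that sum's counts. The defining transcripts of oocytes (BMP15, BTG4, BCAR4, CPEB1 and ACTL8) summed to between 4702 and 10120 CPM in every sum, whereas the 5 granulosa and theca markers summed to at most 29.1 CPM, the 8 stroma and vessel markers to at most 15.6 CPM and the leukocyte marker CD68 to at most 1.30 CPM. BTG4 and CPEB1 gave most of the oocyte sum. ACTL8 was low in small oocytes and ran from 0.333 CPM in B of replicate 2 to 42.8 CPM in F of replicate 1. Of the other cells' markers, CD44, COL1A2 and COL4A1 gave most of the CPM. The mean summed level of the 2 replicates ran from 4.88 CPM in A to 19.8 CPM in F for granulosa and theca, and from 3.09 CPM in A to 14.6 CPM in H for stroma and vessel, where COL1A2 rose with diameter (0.27 ± 0.086 log2 units per 10 µm, SE; adjusted p = 0.0205). The other markers of these lists, among them AMHR2, CYP11A1, CCND2, COL1A1, COL3A1, DCN and CDH5, stood at or under 1 CPM in all 16 sums.

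Chromatin readers carry a domain that binds a modified histone tail: bromodomains bind acetylated lysine, and the chromodomains of the CBX and CHD proteins bind methylated lysine. Remodelers use ATP to slide, evict or exchange nucleosomes, and the ARID, BAZ and BRD subunits give these large complexes their targeting. In the growing oocyte the genome is first open and transcribed and is then condensed and silenced towards the end of growth, while the stored mRNA is kept for maturation and the early embryo.

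All 43 IDs passed the filter on low counts, as did 14087 IDs of the table. Each was tested with edgeR's quasi-likelihood test on the 16 sums with the replicate as a block, and p-values were adjusted by Benjamini-Hochberg over all 14087 genes. The slope over diameter is given as the log2 difference per 10 µm. Of the 43 IDs, 16 had a slope past an adjusted p of 0.05, where 33% of all genes tested did so. Of the 16, 6 rose with diameter (ARID1A, BRPF3, BRD3, BRPF1, ARID5B and the second CHD2 ID), beside 14.8% of all genes. The other 10 fell (CBX3, CBX1, CHD1L, CHD9, ARID4B, BRD2, BRD7, BRD8, ASH2L and the first CHD2 ID), beside 18.1% of all genes. The share of these genes past the test, 37.2%, was near that of the table, and the median slope was -0.014 over the 43 IDs and -0.016 over all genes. A test for any difference among the 8 groups called 6 IDs, 14.0%, where 14.9% of all genes were called. That count rose to 11 without A of replicate 2, where 18.9% of all genes were called, and to 10 without F of replicate 2, where 16.4% were, and without the replicate block it was 0, as it was for all genes.

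**Figure D1:**
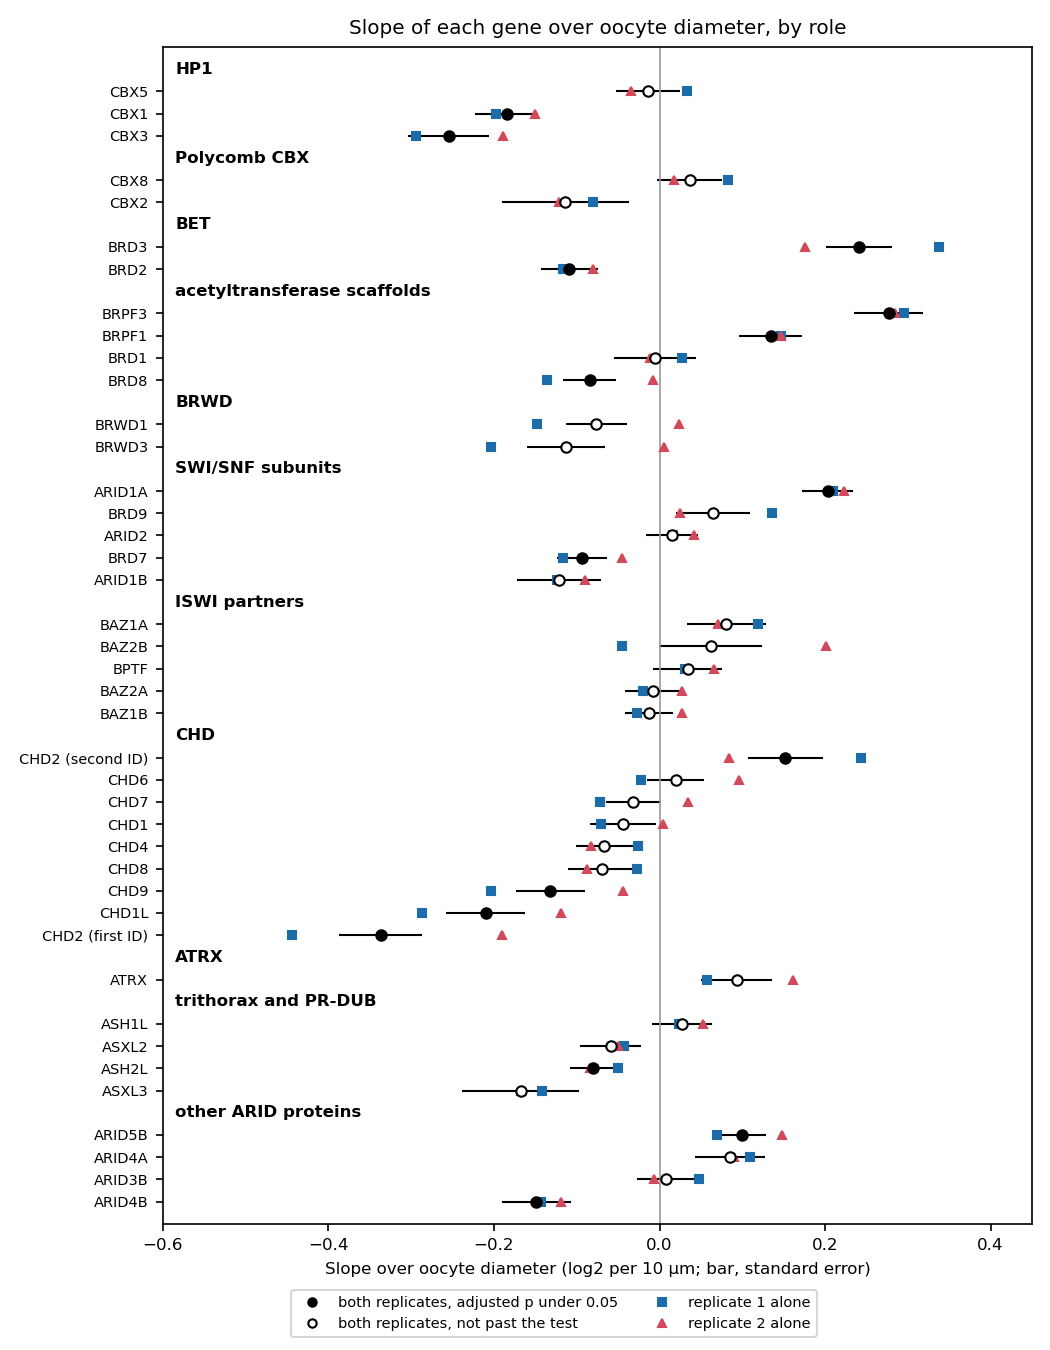
Slope of 41 of the 43 IDs over oocyte diameter, in log2 units per 10 µm on the x axis, grouped by role. Circles with bars are the fit over both replicates with its standard error, filled where the adjusted p was under 0.05, and squares and triangles are replicate 1 and replicate 2 alone. Slopes reach from -0.34 for the first CHD2 ID to 0.28 for BRPF3. The 16 filled circles have the same sign in both replicates, but they were called from these same replicates.

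The HP1 proteins CBX1, CBX3 and CBX5 bind trimethylated lysine 9 of histone H3 and hold heterochromatin together, with CBX3 also found on transcribed genes. CBX3 and CBX1 fell as oocytes grew and CBX5 did not pass the test. In replicate 1 the CPM of CBX3 in A to H were 47.2, 49.9, 47.5, 30.4, 38.7, 12.0, 24.4 and 6.83. The same groups of replicate 2 gave 87.1, 90.4, 61.2, 88.0, 80.7, 51.1, 42.5 and 30.8. Both replicates held their highest value in B and their lowest in H. Over single oocytes, the lowest, median and highest CPM of CBX3 were 30.2, 57.5 and 57.75 in A and 0.749, 9.34 and 24.2 in H of replicate 1, 2 ranges that did not overlap. In replicate 2 they were 13.3, 77.3 and 267 in A and 23.5, 28.7 and 37.3 in H, and these overlapped. A of replicate 1 holds 3 oocytes, and the share of all genes whose ranges in A and H do not overlap was not counted. The slope was -0.25 ± 0.049 (SE, 16 sums; adjusted p = 0.000477), with -0.29 and -0.19 in replicates 1 and 2 taken singly, and the test for any difference gave an adjusted p of 0.00729. The call on the slope was lost where the replicate was not used as a block.

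CBX1 fell by a smaller slope. Its CPM in replicate 1 were 20.6, 20.7, 19.6, 11.9, 13.3, 12.1, 6.58 and 8.24 from A to H. Replicate 2 gave 13.6, 14.9, 9.92, 10.6, 7.49, 5.85, 6.03 and 8.62. All 4 sums from E to H lay below the sums of A and B in both replicates. Its slope was -0.18 ± 0.038 (SE; adjusted p = 0.000915), and leaving out any 1 of the 16 sums kept it at -0.16 to -0.21, while in replicate 2 alone it did not pass. CBX5 ranged from 21.9 to 59.88 CPM in replicate 1 and 34.5 to 57.3 CPM in replicate 2, with a slope of -0.014 ± 0.038 (SE; adjusted p = 0.812) whose sign differed between the replicates. CBX3 has processed copies in mammalian genomes, and how the authors counted reads with several alignments is not stated in the sources used here, so its level is uncertain in that respect.

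CBX2 and CBX8 are CBX proteins of Polycomb repressive complex 1, which read trimethylated lysine 27 of histone H3, and neither passed any test. The CPM of CBX8 in A to H were 28.1, 31.4, 37.1, 40.6, 36.1, 48.1, 21.7 and 48.7 in replicate 1. Those of replicate 2 were 23.5, 21.0, 28.0, 18.4, 13.3, 24.1, 17.4 and 31.4. CBX8 had a slope of 0.037 ± 0.039 (SE; adjusted p = 0.503) and an adjusted p of 0.28 for any difference. CBX2 had 853 counts over all oocytes kept. It had a count in 71.5% of the 165 oocytes and ranged from 0.939 to 2.58 CPM in replicate 1 and 0.932 to 5.75 CPM in replicate 2.

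BRD2 and BRD3, of the BET family, bind acetylated histones through paired bromodomains and recruit the elongation machinery, and their transcripts moved in opposite directions. BRD3 rose. Its CPM in replicate 1 were 9.70, 9.01, 13.3, 15.4, 16.4, 44.2, 22.2 and 40.2 in A to H. Replicate 2 had 15.3, 18.3, 22.7, 20.1, 21.6, 23.2, 31.04 and 45.7 CPM. The largest value of replicate 1 was that of F, the sum in which 1 oocyte dominates, and replicate 2 had its largest value in H. Single oocytes of replicate 1 had a lowest, median and highest CPM of 7.12, 10.1 and 10.8 in A and 9.24, 34.8 and 72.8 in H. Those of replicate 2 had 3.29, 14.3 and 30.0 in A and 21.4, 44.9 and 67.5 in H, and the ranges overlapped in both replicates. The slope of BRD3 was 0.24 ± 0.040 (SE; adjusted p = 0.000103), with 0.34 and 0.18 in replicates 1 and 2 alone, and the adjusted p for any difference was 0.0133.

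BRD2 fell, with CPM of 47.7, 52.2, 51.3, 40.9, 39.1, 44.1, 16.2 and 30.8 in A to H of replicate 1. Replicate 2 gave 47.5, 36.1, 40.5, 35.8, 30.9, 35.2, 25.4 and 31.7. G was the lowest group in both replicates. The slope of BRD2 was -0.11 ± 0.035 (SE; adjusted p = 0.0187). Without A of replicate 2, B of replicate 1 or G of replicate 2 the call was lost, with an adjusted p of up to 0.0746, as it was without the replicate block and in each replicate alone.

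BRPF1, BRPF3 and BRD1 (also known as BRPF2) are scaffolds that hold the acetyltransferases MOZ, MORF and HBO1 and direct them to histone H3, and BRD8 is a bromodomain subunit of the TIP60 acetyltransferase complex. BRPF3 had the steepest rise of all 43 IDs. In replicate 1 its CPM were 22.3, 41.4, 63.3, 65.53, 108.2, 114.8, 71.1 and 110.5 from A to H. The CPM of replicate 2 were 22.1, 31.9, 33.8, 68.49, 69.8, 71.3, 99.47 and 84.10. In both replicates A was the lowest sum, and the ranges of single oocytes in A and H did not overlap. The share of all genes so separated was not counted, and H of replicate 2 holds 4 oocytes. The lowest, median and highest oocytes of replicate 1 stood at 19.5, 21.5 and 31.9 CPM in A and at 53.74, 114.5 and 240.4 CPM in H. Those of replicate 2 stood at 7.80, 20.8 and 49.1 CPM in A and at 50.6, 85.81 and 117.8 CPM in H. The slope was 0.28 ± 0.042 (SE; adjusted p = 4.21e-05), a factor of 1.21 per 10 µm, with 0.30 and 0.28 in replicates 1 and 2 alone, and the adjusted p for any difference was 0.00113, the smallest of the 43.

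BRPF1 rose too. Its CPM were 12.5, 17.0, 17.3, 16.5, 24.6, 30.4, 13.4 and 28.1 in A to H of replicate 1. In replicate 2 they were 11.4, 9.98, 16.7, 17.5, 17.99, 21.1, 16.9 and 25.4. G stood below both of its neighbours F and H in both replicates. The slope was 0.13 ± 0.038 (SE; adjusted p = 0.00953), and the call was lost with counts thinned to 250000 per oocyte and in replicate 1 alone. BRD1 showed no slope past the test, at -0.0058 ± 0.050 (SE; adjusted p = 0.943), and ranged from 5.81 to 13.1 CPM in replicate 1 and 6.91 to 12.5 CPM in replicate 2. BRD8, at 162, 147.3, 159, 105.2, 147.6, 91.5, 72.12 and 80.8 CPM in A to H of replicate 1, was lower in F, G and H than in any smaller group there. In replicate 2 its CPM were 125.4, 126.2, 121.4, 161, 147.1, 137, 114.4 and 120.4, with no such step. Its slope of -0.084 ± 0.032 (SE) passed at an adjusted p of 0.0497, was -0.14 in replicate 1 and -0.0073 in replicate 2, and lost its call when any sum other than A of replicate 2 was left out, with an adjusted p of up to 0.195. It also did so in each replicate alone, without the block, with RLE normalization, with no filter on low counts and with all 179 oocytes.

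BRWD1 and BRWD3 pair bromodomains with WD40 repeats, and BRWD1 is known for its need in mouse germ cells. Neither passed a test. BRWD1 ranged from 45.5 to 123.3 CPM in replicate 1 and 189.9 to 374 CPM in replicate 2, with a slope of -0.076 ± 0.037 (SE; adjusted p = 0.118). BRWD3 stood at 53.6, 21.6, 19.3, 18.5, 13.7, 10.04, 21.2 and 10.8 CPM in A to H of replicate 1. In replicate 2 it stood at 67.9, 88.2, 81.1, 77.3, 71.2, 53.6, 50.9 and 107.9 CPM. BRWD3 had a slope of -0.11 ± 0.048 (SE; adjusted p = 0.0722) and an adjusted p of 0.261 for any difference. In replicate 1 alone both sloped down, at -0.15 and -0.20, and in replicate 2 alone they stood at 0.024 and 0.0056.

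**Figure D2:**
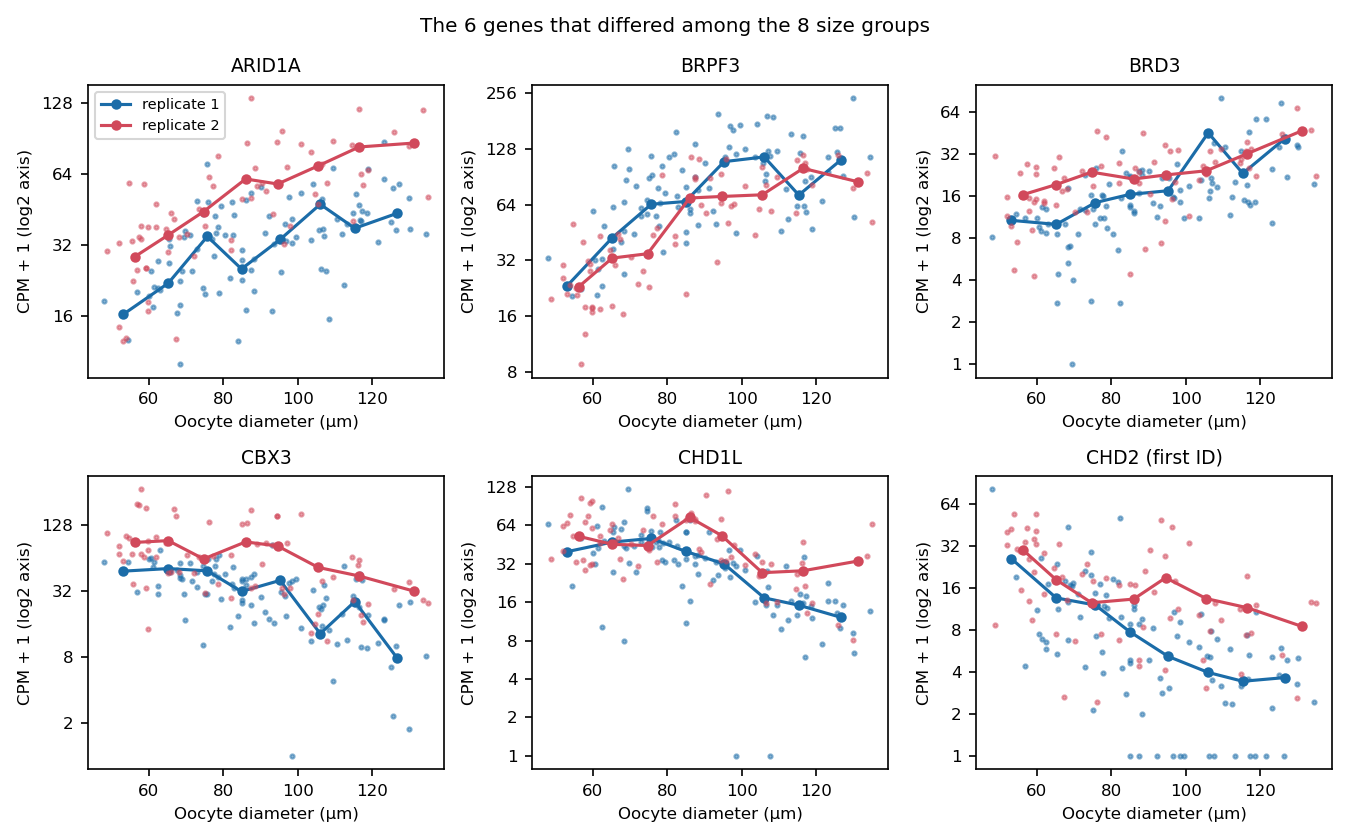
CPM + 1 on a log2 axis against oocyte diameter in µm for the 6 IDs that differed among the 8 size groups, with small points for single oocytes and joined points for the sums of each group, by replicate. ARID1A, BRPF3 and BRD3 are higher, and CBX3, CHD1L and the first CHD2 ID are lower, in the largest than in the smallest oocytes of both replicates.

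SWI/SNF complexes, also called BAF complexes, evict nucleosomes at enhancers and promoters, and differ in their large subunits. Canonical BAF holds ARID1A or ARID1B and PBAF holds ARID2 with BRD7, while BRD9 marks the noncanonical form. ARID1A rose with diameter. Its CPM in replicate 1 were 15.3, 21.1, 33.8, 24.4, 32.8, 46.6, 36.7 and 42.5 from A to H. Those in replicate 2 were 27.6, 34.3, 43.3, 59.85, 56.94, 68.2, 82.06 and 85.3. A was the lowest group in both replicates, and all 8 sums of replicate 2 were above those of replicate 1 for the same group. Single oocytes of replicate 1 had a lowest, median and highest CPM of 11.7, 17.6 and 19.2 in A and 32.0, 44.2 and 86.3 in H, with no overlap. Those of replicate 2 had 11.6, 26.98 and 57.2 in A and 49.9, 89.02 and 118.2 in H, with some overlap. As for CBX3, the share of all genes without overlap was not counted. The slope was 0.20 ± 0.031 (SE; adjusted p = 4.23e-05), at 0.21 and 0.22 in replicates 1 and 2 alone, and the adjusted p for any difference was 0.00941.

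ARID1B, the alternative subunit, stood at 2.92 to 7.64 CPM in replicate 1 and 3.02 to 8.58 CPM in replicate 2, with its highest value of replicate 1 in A, and its slope of -0.12 ± 0.051 (SE; adjusted p = 0.0708) did not pass. ARID2 ranged from 18.3 to 33.95 CPM in replicate 1 and 57.35 to 106.2 CPM in replicate 2, with a slope of 0.015 ± 0.031 (SE; adjusted p = 0.748). BRD7 fell, from 242.5 CPM in A to 110.3 CPM in H of replicate 1. The full series there was 242.5, 224.6, 194, 174, 171, 88.29, 178 and 110.3, and replicate 2 gave 295, 276.8, 281, 222, 267.5, 239.7, 243.8 and 224.1. The decline was larger in replicate 1 (-0.12) than in replicate 2 (-0.045), a difference that was not tested, and the pooled slope was -0.094 ± 0.030 (SE; adjusted p = 0.0201). The BRD7 call held without C of replicate 2, D, E, F or G of replicate 1, or F of replicate 2, and was lost without any of the 10 other sums, with an adjusted p of up to 0.115, as it was without the replicate block and in each replicate alone. BRD9 ranged from 42.9 to 154 CPM in replicate 1 and 29.8 to 47.9 CPM in replicate 2 and was highest in F of both. In F of replicate 1, the sum in which 1 oocyte dominates, the median oocyte stood at 92.2 CPM, beside 97.6 CPM in E. The BRD9 slope was 0.065 ± 0.045 (SE; adjusted p = 0.29), with an adjusted p of 0.0843 for any difference.

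BAZ1A, BAZ1B, BAZ2A, BAZ2B and BPTF are the large partners of the ISWI motors, which space nucleosomes evenly. None of the 5 passed a test. BAZ1A, a partner in ACF and CHRAC, ranged from 71.8 to 355 CPM in replicate 1 and 244.1 to 439.1 CPM in replicate 2, lowest in F and highest in G of replicate 1, with a slope of 0.081 ± 0.047 (SE; adjusted p = 0.199). BAZ2B had the smallest adjusted p of the 5 for any difference, 0.13. Its CPM in A to H were 31.9, 18.9, 14.2, 15.8, 6.70, 5.33, 29.1 and 16.6 in replicate 1. In replicate 2 they were 40.3, 29.3, 33.5, 38.0, 23.8, 62.6, 79.2 and 91.3, where F, G and H were the highest. The BAZ2B slopes differed in sign, at -0.045 in replicate 1 and 0.20 in replicate 2. BAZ1B, the Williams syndrome transcription factor, ranged from 22.2 to 36.0 CPM in replicate 1 and 37.9 to 59.8 CPM in replicate 2. BAZ2A, the subunit of the nucleolar complex that silences ribosomal genes, ranged from 15.3 to 35.1 CPM in replicate 1 and 45.2 to 67.5 CPM in replicate 2. BPTF, the reader of trimethylated lysine 4 in the NURF complex, ranged from 11.2 to 30.8 CPM in replicate 1 and 57.5 to 127.3 CPM in replicate 2. The slopes of these 3 lay between -0.013 and 0.034.

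CHD proteins carry their own motor, in most of them beside paired chromodomains. CHD1 and CHD2 act on transcribed genes, CHD4 is the motor of the NuRD deacetylase complex, CHD6 to CHD9 form a family of their own, and CHD1L (also ALC1), which has a macro domain and no chromodomain, is recruited by poly(ADP-ribose) at damaged DNA. Of the 9 IDs, 3 fell, 1 rose and 5 did not pass the slope test. CHD1L fell late. Its CPM in replicate 1 were 38.9, 46.4, 49.6, 39.1, 30.9, 16.3, 14.2 and 11.2 from A to H. Replicate 2 gave 51.6, 44.5, 43.5, 73.04, 52.4, 26.3, 27.2 and 32.6. F, G and H were the 3 lowest groups in both replicates. Single oocytes had a lowest, median and highest CPM of 20.4, 49.6 and 64.5 in A and 5.37, 12.4 and 21.5 in H of replicate 1. In replicate 2 they were 27.8, 55.91 and 103.3 in A and 7.14, 22.7 and 64.9 in H, and the ranges overlapped in both replicates. The slope was -0.21 ± 0.048 (SE; adjusted p = 0.00208), with -0.29 and -0.12 in replicates 1 and 2 alone, and the adjusted p for any difference was 0.014. The step from D and E to F was -1.17 ± 0.33 (log2, SE) but did not pass the test over all genes (adjusted p = 0.101), and the slope did not pass in replicate 2 alone.

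CHD9 fell in replicate 1, at 30.6, 31.03, 23.1, 19.5, 17.7, 11.5, 18.6 and 7.46 CPM from A to H. In replicate 2 its CPM were 78.4, 93.3, 50.9, 101.3, 74.53, 51.8, 57.9 and 75.7, without an ordered decline. The slope was -0.13 ± 0.042 (SE; adjusted p = 0.018), at -0.20 and -0.044 in the replicates alone. It lost its call without A, B or H of replicate 1 and without B or G of replicate 2, with an adjusted p of up to 0.103, without the replicate block and in replicate 2 alone. CHD4 ranged from 24.4 to 53.71 CPM in replicate 1 and 19.6 to 38.0 CPM in replicate 2, with a slope of -0.067 ± 0.034 (SE; adjusted p = 0.143). CHD1 ranged from 8.03 to 22.8 CPM in replicate 1 and 43.6 to 81.0 CPM in replicate 2, lowest in F of both replicates, with a slope of -0.044 ± 0.040 (SE; adjusted p = 0.414). CHD6 ranged from 11.6 to 20.5 CPM in replicate 1 and 20.7 to 40.3 CPM in replicate 2, CHD7 from 7.57 to 14.6 CPM in replicate 1 and 22.9 to 33.5 CPM in replicate 2 and CHD8 from 5.57 to 11.8 CPM in replicate 1 and 14.4 to 33.02 CPM in replicate 2. Their slopes were 0.019 ± 0.034, -0.032 ± 0.033 and -0.070 ± 0.041 (SE), none of which passed.

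The 2 gene IDs that carry the symbol CHD2 stood on consecutive lines of the count table and moved in opposite directions. RefSeq lists 1 CHD2 gene, on chromosome 21, and whether the 2 IDs are parts of 1 transcription unit cannot be told here. The first ID fell, at 24.8, 12.5, 11, 6.75, 4.15, 2.95, 2.42 and 2.63 CPM in A to H of replicate 1. In replicate 2 it stood at 28.9, 17.2, 11.5, 12.2, 17.8, 12.3, 10.5 and 7.46 CPM. Both replicates were highest in A. The second ID stood at 14.6, 11.01, 18.5, 10.1, 17.1, 42.7, 21.6 and 36.7 CPM in replicate 1. In replicate 2 it stood at 14.6, 9.41, 12.2, 13.9, 15.8, 14.5, 18.9 and 17.2 CPM. Its highest values of replicate 1 were those of F and H.

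For the first ID the slope was -0.34 ± 0.050 (SE; adjusted p = 3.58e-05), the steepest of the 43, with an adjusted p of 0.0124 for any difference. Its slopes were -0.44 and -0.19 in replicates 1 and 2 alone. For the second ID the slope was 0.15 ± 0.045 (SE; adjusted p = 0.0124), at 0.24 in replicate 1 and 0.084 in replicate 2, and its call was lost in replicate 2 alone. Of the counts on both IDs, the first ID held 63.1% of 536 in A and 6.69% of 1002 in H of replicate 1. In replicate 2 it held 66.5% of 2055 counts in A and 30.2% of 106 counts in H. The summed level of both IDs in A to H was 39.4, 23.5, 29.5, 16.8, 21.2, 45.7, 24.02 and 39.3 CPM in replicate 1. In replicate 2 it was 43.5, 26.6, 23.7, 26.1, 33.7, 26.8, 29.4 and 24.7 CPM. It was lowest in D and highest in F, the sum in which 1 oocyte dominates, in replicate 1, and highest in A in replicate 2. Reads per oocyte share a library, so these shares carry more error than counting alone gives.

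**Figure D3:**
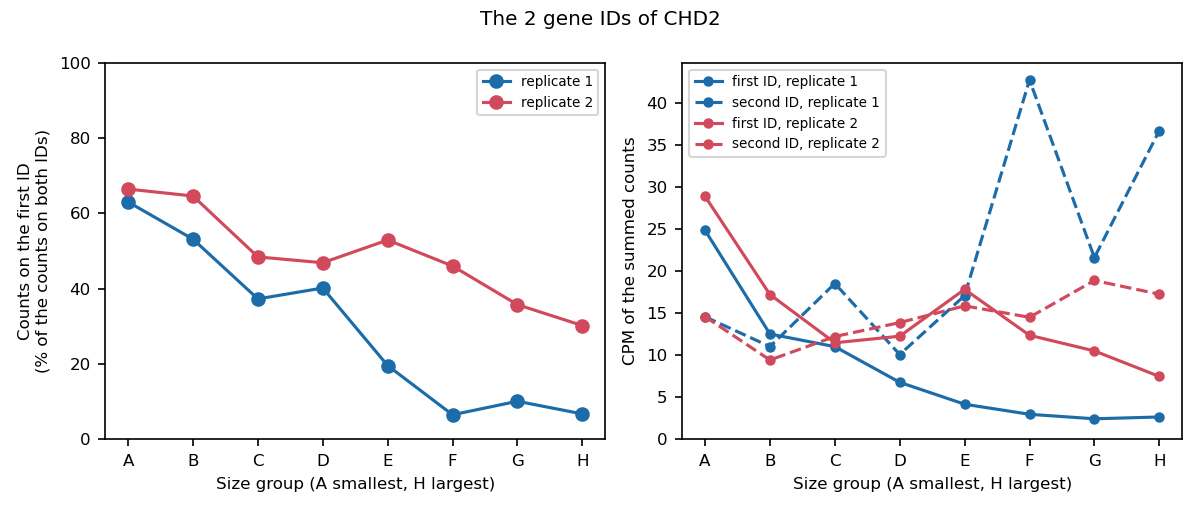
The 2 gene IDs of CHD2 over size groups A to H. On the left, the y axis gives the percent of the counts on both IDs that fell on the first ID, by replicate, and on the right the CPM of each ID. The share falls from 63.1% to 6.69% in replicate 1 and from 66.5% to 30.2% in replicate 2.

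ATRX, which deposits histone H3.3 at repeats together with DAXX and is known for its part in chromosome segregation of mouse oocytes, did not pass the slope test (0.093 ± 0.043, SE; adjusted p = 0.103) but was called in a step between neighbouring groups, which no other ID was in the planned fit (edgeR with TMM, the filter on low counts, the block and all 16 sums). From F to G it rose by 1.36 ± 0.37 on the log2 scale (SE; adjusted p = 0.0456), in a comparison that called 3.88% of all genes and 2.33% of the 43 IDs. Its CPM in A to H were 164, 110.5, 154, 106.5, 136, 70.40, 243.8 and 143.8 in replicate 1. The CPM of replicate 2 were 494, 665, 430.9, 803, 827, 623, 1255 and 1058. G was the highest group in both replicates. Single oocytes had a lowest, median and highest CPM of 32.5, 72.09 and 145 in F and 82.0, 211 and 607 in G of replicate 1. In replicate 2 they were 318.8, 555 and 1081 in F and 370.8, 1269 and 2480 in G. Of the G oocytes, 12 of 12 in replicate 1 and 5 of 7 in replicate 2 stood above the median F oocyte, although the ranges overlapped. Without F of replicate 1 the difference was 1.03 (adjusted p = 0.47), and 0 of all genes were called, as they also were without G of replicate 1. The ATRX call was lost in 8 of the 16 fits that leave out 1 sum, namely without either sum of B, D or E, without F of replicate 1 and without G of replicate 1. It was also lost without the replicate block and with all 179 oocytes, where 0.00% and 0.0142% of all genes were called.

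From F to G, 14 of the 43 IDs, ATRX among them, and 3667 of 14087 genes had an unadjusted p under 0.05, 8 of the 14 higher in G and 6 lower. BPTF stood 1.23 ± 0.35 higher in G (adjusted p = 0.0504) and ARID4A 1.24 ± 0.36 higher (adjusted p = 0.0511), both just outside the test. BRD9 gave -1.10 ± 0.32 (adjusted p = 0.0554), where F of replicate 1 is the sum in which 1 oocyte dominates. Next by adjusted p came CHD1, CBX5, BAZ1A and ARID2, at 1.07 ± 0.34, 0.99 ± 0.32, 1.22 ± 0.40 and 0.83 ± 0.28 (adjusted p = 0.0678, 0.0737, 0.0771 and 0.0812), and then BRD2 at -0.92 ± 0.31 (adjusted p = 0.0827). The 2 replicates differed in size: in log2(CPM + 1), BAZ1A was higher in G than in F by 2.29 in replicate 1 and by 0.028 in replicate 2, and BAZ2B by 2.25 and 0.33. Over the single oocytes of replicate 1, all 12 of G stood above the F median for ARID4A, BAZ1A, BAZ2B and CHD1, as for ATRX, which makes 5 of the 43 IDs beside 8.63% of the 11000 genes that passed the filter per oocyte. None of the 12 did for BRD2, BRD9, CBX8, CBX1, ARID3B, ASXL2, ASXL3, BAZ2A and BRD1, 9 of the 43 beside 11.6% of those genes. In replicate 2, in the same order of genes, 4, 1, 6 and 6 of the 7 oocytes of G stood above the F median for the first set, and 0, 2, 3, 5, 1, 4, 2, 4 and 5 of them for the second. Whether the replicates differ in this step was not tested.

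**Figure D4:**
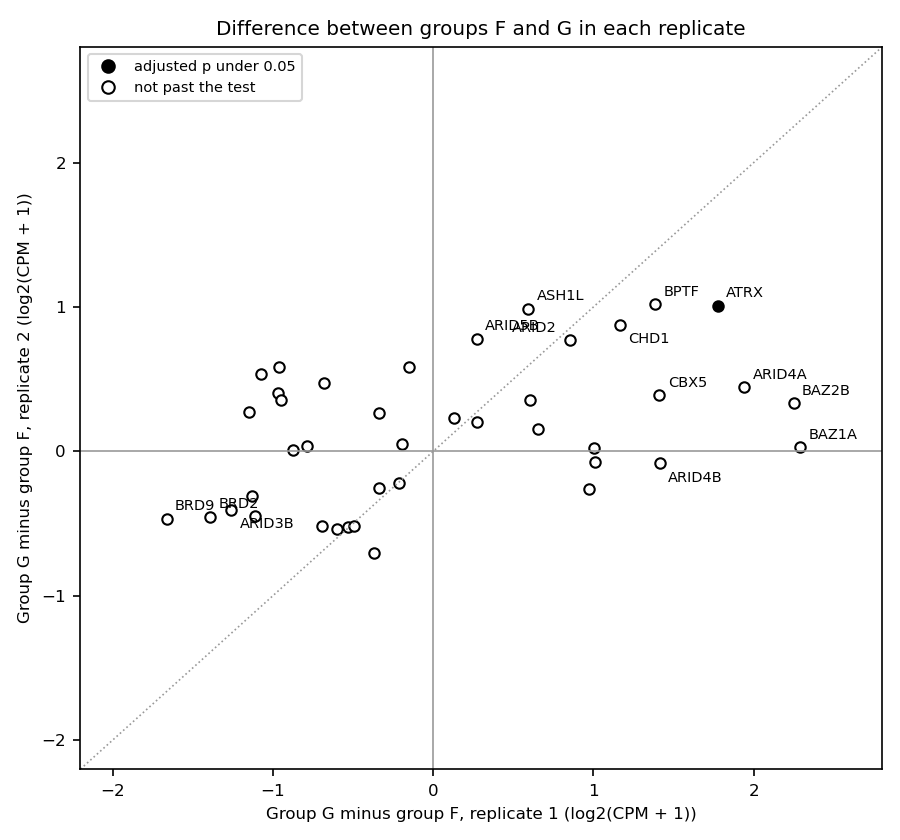
Difference between groups G and F of 41 of the 43 IDs in log2(CPM + 1), replicate 1 on the x axis and replicate 2 on the y axis, with the dotted line marking equal differences. ATRX, the filled point, is at 1.78 and 1.01, and many points lie farther from 0 on the x axis than on the y axis.

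In the other steps that fit by edgeR's quasi-likelihood test called 0 of the 43 IDs. It called 0.0142% of all genes from A to B, 0.135% from A and B to C, 0.00% from C to D and E and from D to E, 0.497% from D and E to F and 0.00710% from G to H. At an unadjusted p under 0.05 stood 1 of the 43 IDs and 3.21% of all genes from A to B, 4 IDs and 7.55% from A and B to C, 1 ID and 5.54% from C to D and E, and 1 ID and 3.33% from D to E. The same threshold held 8 IDs and 16.1% of all genes from D and E to F, and 5 IDs and 11.1% from G to H. From D and E to F, 1 ID was called with no filter on low counts (2.02% of all genes) and 1 without F of replicate 2 (1.87%). Without G of replicate 2 there were 2 from G to H (1.99%). At the step from D and E to F, 29 of the 43 differences were below 0, with a median of -0.22 where that of all genes was -0.033. CBX3 gave -1.05 ± 0.34 (SE; adjusted p = 0.152) there and BRD3 0.96 ± 0.32 (SE; adjusted p = 0.166). F of replicate 1, the sum in which 1 oocyte dominates, enters this step. In that sum CBX3 stood at 12.0 CPM and BRD3 at 44.2 CPM, where the median oocytes stood at 20.8 and 18.8 CPM. DESeq2 called 2 of the 43 IDs at that step, where it called 4.46% of all genes to which it gave an adjusted p. From F to G it called 10 of the 43, beside 16.5% of all genes, and it called 0 in the other steps, of which G to H had an adjusted p for only 7 of the 43. In those steps DESeq2 called 0.0562% of all genes from A to B, 0.639% from A and B to C and 0.131% from C to D and E. It called 0.00% from D to E and 0.111% from G to H.

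ASH1L and ASH2L belong to the trithorax group, ASH2L as a core subunit of the methyltransferase complexes that act on lysine 4 of histone H3, and ASXL2 and ASXL3 are cofactors of BAP1, the deubiquitinase of histone H2A. ASH2L fell by the smallest slope of those called, -0.080 ± 0.028 (SE; adjusted p = 0.0339). Its CPM in A to H were 119.9, 142, 139.6, 100.9, 138, 118.7, 78.03 and 97.23 in replicate 1. Replicate 2 had 82.15, 74.54, 82.5, 81.6, 81.2, 74.4, 50.8 and 53.4 CPM. G and H were the 2 lowest groups of both replicates, and the 6 smaller groups of replicate 2 lay within 74.4 to 82.5 CPM. The call held without A or D of replicate 1 and was lost without any of the other 14 sums, with an adjusted p of up to 0.196. The same was so in each replicate alone, without the block, with RLE normalization, with no filter and with thinned counts. ASH1L ranged from 6.46 to 11.9 CPM in replicate 1 and 31.4 to 64.5 CPM in replicate 2, ASXL2 from 11.3 to 27.5 CPM in replicate 1 and 23.3 to 42.2 CPM in replicate 2 and ASXL3 from 1.78 to 8.69 CPM in replicate 1 and 0.932 to 7.43 CPM in replicate 2. Their slopes were 0.027 ± 0.036, -0.059 ± 0.037 and -0.17 ± 0.070 (SE), and none passed.

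Among the ARID proteins outside SWI/SNF, ARID4A and ARID4B are subunits of the SIN3A deacetylase complex, ARID5B brings the demethylase PHF2 to its targets and ARID3B is a transcription factor related to Bright. ARID5B rose, with CPM of 54.2, 67.8, 82.5, 61.0, 76.8, 61.4, 74.4 and 82.8 in A to H of replicate 1. In replicate 2 they were 176, 202.7, 181, 182, 286.7, 202, 348 and 375. A was the lowest and H the highest group in both. The slope was 0.099 ± 0.030 (SE; adjusted p = 0.0132), and the call was lost in replicate 1 alone and without the replicate block. ARID4B fell, with CPM of 136, 93.0, 77.18, 72.5, 72, 36.1, 98.02 and 33.9 in replicate 1. The same groups of replicate 2 gave 214, 254, 186, 289.8, 252, 169, 160 and 113.2. H was the lowest group in both replicates. The slope was -0.15 ± 0.042 (SE; adjusted p = 0.00929), with an adjusted p of 0.0544 for any difference, and it lost its call without A of replicate 1 or either sum of H, with an adjusted p of up to 0.0764, in each replicate alone, and without the block. ARID4A ranged from 113.5 to 438.6 CPM in replicate 1 and 403 to 788 CPM in replicate 2, with a slope of 0.085 ± 0.042 (SE; adjusted p = 0.126), and ARID3B from 19.1 to 47.1 CPM in replicate 1 and 15.4 to 21.2 CPM in replicate 2, with a slope of 0.0078 ± 0.035 (SE; adjusted p = 0.89).

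Close relatives were also set side by side by the log2 ratio of their CPM, whose slope over diameter was fitted on the 16 sums with the mean of each replicate removed. The 22 pairs were written down after the slopes of the single genes were known, so the ratios are a description and carry no test. The slope had the same sign in both replicates for 19 of the 22 pairs and opposite signs for 3.

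The ratio of ARID1A to ARID1B sloped up by 0.30 ± 0.035 log2 units per 10 µm (SE), at 0.30 in replicate 1 and 0.29 in replicate 2. That of BRD2 to BRD3 sloped down, at -0.34 ± 0.040. BRPF3 to BRD1 gave 0.27 ± 0.037, BRPF1 to BRD1 0.12 ± 0.036 and BRPF1 to BRPF3 -0.15 ± 0.037. Each of these ratios kept its sign in both replicates and with any 1 of the 16 sums left out.

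CBX3 to CBX5 had a slope of -0.24 ± 0.050 and CBX1 to CBX5 one of -0.15 ± 0.055, whereas CBX1 to CBX3 gave 0.089 ± 0.060. The ratio of ARID4A to ARID4B, at 0.23 ± 0.022, had the smallest error of the 22 and stood at 0.25 and 0.21 in the replicates, although the slope of ARID4A by itself had not passed its test. Among CHD6 to CHD9 the slopes were 0.16 ± 0.038 for CHD6 to CHD9, 0.11 ± 0.032 for CHD7 to CHD9, 0.094 ± 0.043 for CHD6 to CHD8 and 0.053 ± 0.027 for CHD6 to CHD7. CHD8 to CHD9 and CHD7 to CHD8 gave 0.066 ± 0.057 and 0.041 ± 0.047 and differed in sign between the replicates, as did BAZ2A to BAZ2B at -0.065 ± 0.094. BRD7 to BRD9 sloped by -0.16 ± 0.070. The steepest ratio was that of the first CHD2 ID to the second, -0.43 ± 0.065, at -0.61 and -0.25 in replicates 1 and 2. CBX2 to CBX8 gave -0.11 ± 0.057, BAZ1A to BAZ1B 0.071 ± 0.055 and ASXL2 to ASXL3 0.084 ± 0.045, and BRWD1 to BRWD3 was the flattest at 0.038 ± 0.041.

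**Figure D5:**
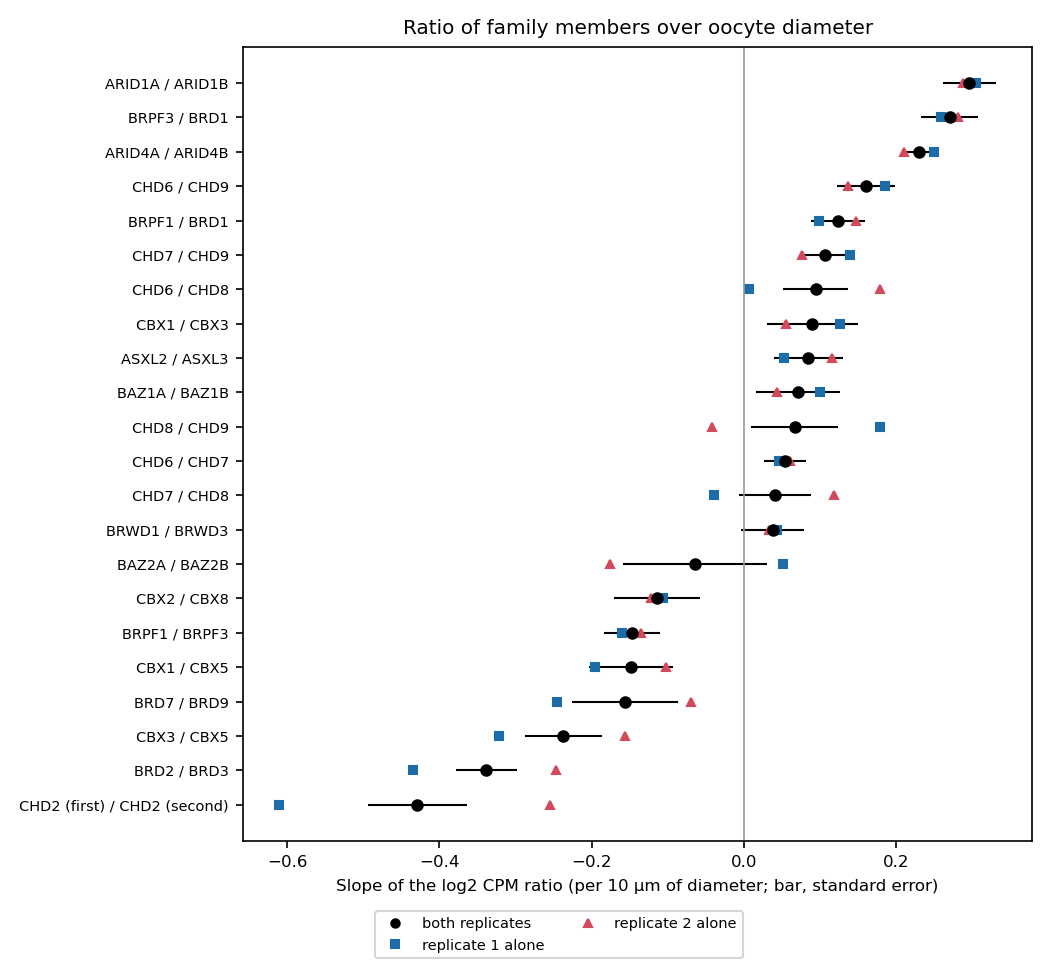
Slope of the log2 CPM ratio of each of 22 pairs of relatives over oocyte diameter, per 10 µm on the x axis. Circles with bars are both replicates with the standard error, and squares and triangles are replicates 1 and 2 alone. The pairs run from -0.43 for the 2 CHD2 IDs to 0.30 for ARID1A over ARID1B.

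Over single oocytes, Pearson's r between log2(CPM + 1) and diameter for the 165 oocytes kept, with the mean of each replicate removed, was highest for BRPF3 (0.66), ARID1A (0.62) and BRD3 (0.56) and lowest for CBX3 (-0.55), CHD1L (-0.55), BRD2 (-0.53), the first CHD2 ID (-0.52) and CBX1 (-0.52). The median over the 43 IDs was -0.12, with 27 values below 0, beside a median of -0.029 over 11000 genes that passed the filter per oocyte. With all 179 oocytes the median over the 43 turned to 0.058, with 28 values above 0. The median over all genes was not computed for that set. These r describe cells that share libraries and depth and carry no test. Of the 43 IDs, 17 lay between -0.2 and 0.2, or 39.5%, where 47.6% of the 11000 genes did. Within a group and replicate, oocytes differed by a median SD of 0.73 in log2(CPM + 1), from 0.36 for ASH2L to 1.17 for ASXL3. A count was found in every one of the 165 oocytes for 26 of the 43 IDs, and in at least 95% of oocytes for 39. This follows in part from the choice of genes expressed in all groups, and the shares over all genes were not counted.

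The replicates differed in the level of most of these genes. The mean log2(CPM + 1) over the 8 groups was higher in replicate 2 for 31 of the 43 IDs, with a median difference of 0.82, where the median over all genes tested was -0.098. A difference above 1 was found for 46.5% of the 43 IDs and 12.4% of all genes. It was largest for ATRX (2.44), ASH1L (2.31), CHD1 (2.16) and BPTF (2.11), and lowest for BRD9 (-1.0) and ARID3B (-0.78). Read length and library preparation cannot be told apart in this difference, and it is removed from the slopes by the block.

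Other subunits of the same complexes were counted from lists of symbols, restricted to those that the sources used here pair with a gene ID. These sources were read in shortened copies, so the symbols that entered these lists all begin with A, B or C, and the counts do not stand for the whole complexes. Of 25 tested partner subunits, 6 rose and 3 fell with diameter, beside 14.8% and 18.1% of all genes. Among them CHRAC1, a histone-fold partner of BAZ1A, rose by 0.11 ± 0.025 (SE; adjusted p = 0.00226), and BMI1, the Polycomb partner of the CBX proteins, fell with -0.20 ± 0.048 (adjusted p = 0.00279). BCL7A, a BAF subunit, fell with -0.28 ± 0.076 (adjusted p = 0.00815). ACTR6 of the SRCAP complex, ACTR8 of INO80 and BRMS1 of the SIN3 complex rose, by 0.13 ± 0.035, 0.12 ± 0.036 and 0.15 ± 0.048 (adjusted p = 0.00906, 0.0128 and 0.0178). Beside the same shares, 3 of 5 other bromodomain proteins rose and none fell: CECR2 by 0.24 ± 0.045 (adjusted p = 0.000372), ATAD2B by 0.20 ± 0.038 (adjusted p = 0.000523) and BRDT by 0.24 ± 0.071 (adjusted p = 0.0115). Of 5 histone chaperones 1 rose, CHAF1A of the CAF-1 complex, by 0.14 ± 0.034 (adjusted p = 0.00358). Of the 6 family members outside the list of genes expressed in all groups, 3 passed the filter on low counts (ARID3A, ASXL1 and CHD3) and none of these had a slope past the test. From F to G, 1 of 25 partner subunits and 1 of 5 chaperones were called, both higher in G, beside 3.88% of all genes. The test for any difference called 4 of 25 partner subunits, 2 of 5 bromodomain proteins and 2 of 5 chaperones, beside 14.9% of all genes.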

How the data were processed

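Polyadenylated mRNA of single growing oocytes was amplified by a Smart-seq2 protocol and sequenced in 2 library replicates of 150 bp and 75 bp reads. Per the labels and the methods, the authors used Trim Galore (version 0.6.6) for trimming and HISAT2 with the ARS-UCD1.2 assembly for alignment, and deposited raw counts per gene from SeqMonk, with no normalization and no batch correction. Strand, reads with several alignments and overlapping genes are not described in the sources used here. Diameters and size groups came from the labels.

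The study's filter left 165 of 179 oocytes. Gene IDs on more than 1 line (5 of the 43, among them those of ARID1B, ARID4B, BAZ1B and CHD4) were summed. Counts were summed per size group and replicate, genes were kept by filterByExpr (minimum count 10, minimum total 15), and edgeR 4.0.16 (R 4.3.3) was used with TMM and its quasi-likelihood test, with the 8 groups or the mean diameter as terms and the replicate as a block. P-values were adjusted by Benjamini-Hochberg over all 14087 genes and called at 0.05. Standard errors are the log2 difference divided by the square root of F. The replicate number marks 1 library and sequencing batch in the sources, and the 28 pairs of sums with the same number deviated together (correlation 0.576 to 0.836, median 0.722). Oocytes that share a sum may share an animal, so p-values measure the spread between sums. The slope test and the F to G step were tried on simulated counts, and the fit of the ratios on simulated ratios. The other tests and the alternatives were not checked in this way, and no outcome is reported here. CPM per oocyte used TMM effective library sizes with a pseudocount of 1. Slopes of the ratios of relatives were fitted in numpy 2.4.6 (Python 3.11.15) with no test.

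The values of 2 of the 43 IDs are not reported here, although both are in the counts and medians over the 43. All others are named. Full values are given to those called in at least 1 of 9 tests and, in role groups without one, to the one with the smallest adjusted p for any difference. From the other lists, up to 6 genes with a slope past the test are named per list, by smallest adjusted p. The genes, the role groups and the lists were chosen with earlier results of these data known. The alternatives tried were RLE normalization, DESeq2 1.42.0, a fit with no replicate block, no filter on low counts, single oocytes with raw or ComBat-seq (sva 3.50.0) counts, counts thinned to 250000 per oocyte, all 179 oocytes, each replicate alone and each sum left out. The ratios of relatives were chosen after seeing the data. Sequences of these genes were not used here, and gene lengths were not used, so that levels are not compared between genes.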

Additional observations from a re-analysis of the deposited data

How the results depend on the processing

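The sums of only 2 library batches carry every test, F of replicate 1 rests largely on 1 oocyte and A of replicate 1 on 3, and counts of single oocytes with raw or ComBat-seq values treat cells as replicates. Of the 16 slopes called, 0 changed sign in 26 alternatives, while 13 of the 27 slopes not called did so in at least 1. These alternatives reuse the oocytes from which the slopes were called, so a kept sign is no separate support. In the planned fit the replicate is a block. In the unpaired fit without the replicate block 0 of the 43 IDs differed among groups and 0 were called from F to G. Both shares were 0.00% over all genes. That fit called a slope for 8 IDs, beside 15.6% of all genes (16 beside 33% with the block). Slopes were called for 10 IDs in replicate 1 alone, beside 17.5% of all genes, and for 9 in replicate 2 alone, beside 18.2%, each with 8 sums.

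The share of all genes called under the same setting is given in parentheses. The count for any difference, 6 (14.9%), was 13 with no filter (17.7%), 15 with DESeq2 (29.1%), 11 thinned (25.1%), 31 and 30 with single oocytes as raw and ComBat-seq counts (65.4% and 63.8%), and 6 to 11 with a sum left out (10.6% to 18.9%). Slopes were 27 in both fits of single oocytes (57.7% and 56.4%) and 11 to 16 with a sum left out (26.5% to 32.8%). Fits of single oocytes with raw and ComBat-seq counts gave 3 and 6 IDs from A and B to C (7.80% and 8.34%), 1 and 1 from C to D and E (2.66% and 1.91%), 3 and 3 from D and E to F (6.18% and 4.87%), 19 and 20 from F to G (37.0% and 38.3%), and 3 and 5 from G to H (4.71% and 7.41%). The step from D and E to F gave 1 ID with no filter (2.02%), 2 with DESeq2 (4.46%) and 0 to 1 with a sum left out (0.00% to 1.99%). From F to G, 1 ID (3.88%) became 3 with RLE (4.74%), 6 with no filter (7.33%), 10 with DESeq2 (16.5%), 3 thinned (7.73%), 0 with all 179 oocytes (0.0142%) and 0 to 7 with a sum left out (0.00% to 9.94%). From G to H, 0 to 2 were called with a sum left out, the 2 without G of replicate 2 (1.99%). The median r with diameter, -0.12, was 0.058 with all 179 oocytes, for which no median over all genes was computed. The cause of these shifts was not tested.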
